A study of Mus musculus with 12 samples.

Results

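Cholesterol is made in the liver by a chain of enzymes whose genes are switched on together by the transcription factor SREBP2. A list of 28 genes of this route, with its sensors and other SREBP2 targets, was followed here across 12 expression arrays of type 2 diabetes (T2D) mice and their controls. A gene was taken where a transcript cluster, the set of probes read out as 1 value, carried exactly 1 gene symbol on the list, and a gene with several such clusters was given by the one with the highest mean over the 12 arrays. In this way 27 of the 28 genes were measured, out of 19946 genes with such a cluster. Acat2 is named only.

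The T2D arrays were those titled 6Y, 16Y and 42Y, and the control arrays were those titled 1, here called control 1, 6K and 42WKK, with 2 arrays in each group. The methods describe KK-Ay mice (KK.Cg-Ay/J), which carry the yellow allele of agouti (a) and develop obesity and T2D, and KK mice of the same background, kept on lab chow and studied at 42 weeks. The numbers in the other titles have no stated unit, and no source used here gives the strain of control 1 array by array or says that each array came from a separate mouse. The p-values therefore measure only the spread between these arrays, which may be technical.

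In the sterol response, the SREBP2 precursor sits in the membrane of the endoplasmic reticulum bound to its escort, Scap. When membrane sterol is low, Scap carries SREBP2 to the Golgi, where it is cut, and the released part enters the nucleus and raises transcription of the synthesis enzymes. When sterol is high, Insig proteins hold Scap back and the same genes are expressed less. Insulin and feeding also raise this programme in liver, and cholesterol made there supplies membranes, lipoproteins and bile acids.

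The sources disagreed about some of these arrays. The sample records place 6K with T2D and 42Y with the controls, against the titles and the series description, and they name blood while the methods name liver. The titles were followed here. Agouti, which KK-Ay mice express in tissues where it is normally silent, had log2 signals of 6.78 to 7.06 in the 6Y, 16Y and 42Y arrays and of 5.20 to 5.51 in the control 1, 6K and 42WKK arrays, the same division as in the titles. Array medians of 10 hepatocyte genes were 12.83 to 13.06, against 4.08 to 4.35 for 6 T cell genes and 3.87 to 4.52 for 5 B cell genes. The median of all 35556 clusters lay between 4.74 and 4.88 in every array, and paired arrays of each group correlated at 0.983 (42Y) to 0.991 (42WKK).

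Across the 6 groups many of the cholesterol genes shared 1 pattern, high in 6Y and 42WKK and low in 16Y. The median deviation of the 27 genes from their own means over all arrays was 0.36 and 0.54 on the log2 scale in 6Y arrays, -0.56 and -0.74 in 16Y arrays and -0.47 and -0.08 in 42Y arrays, against -0.18 and -0.10 in control 1, 0.21 and 0.15 in 6K and 0.47 and 0.40 in 42WKK arrays. The median deviation of all clusters stayed between -0.03 and 0.03 in each array. The group mean was lowest in 16Y for 22 of the 27 genes, and it was highest in 42WKK for 12 and in 6Y for 11. The share of all clusters with each of these orders was not computed. In a moderated F test over the 6 groups (limma, p adjusted over all clusters), 15 of the 27 genes passed an adjusted p under 0.05, against 5.43% of all clusters. This count fell to between 1 and 4 when any 1 array of a group other than 42Y was left out, and was 16 without 42Y array 1 and 17 without 42Y array 2.

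**Figure D1:**
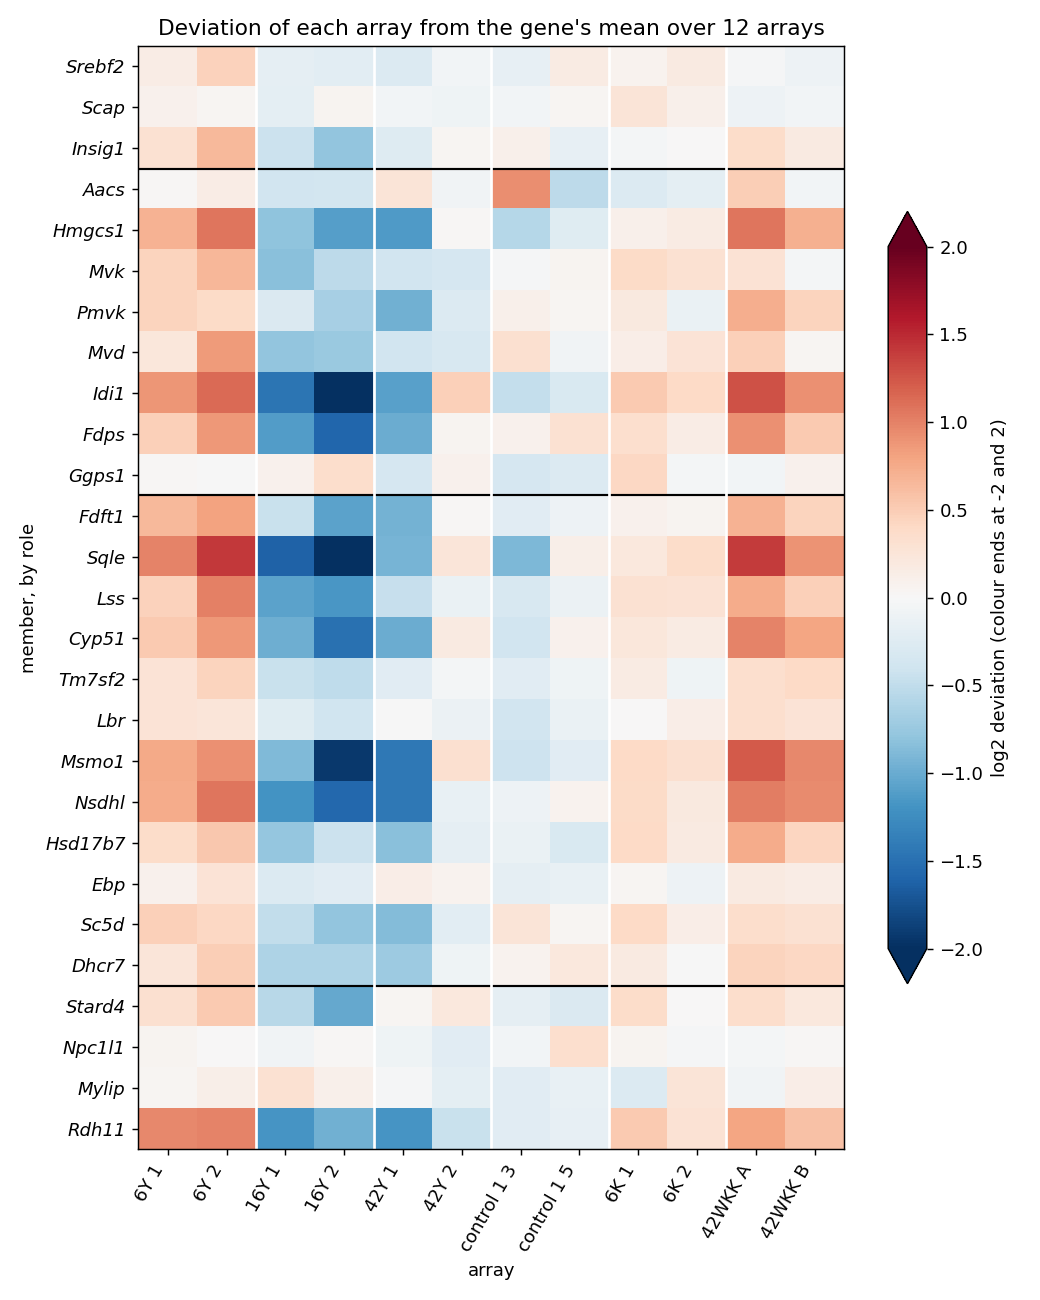
Log2 deviation of each array (columns, 6Y, 16Y and 42Y left of control 1, 6K and 42WKK) from each gene's own mean over 12 arrays (rows, in the order of the pathway), with the colour ending at -2 and 2. Most sterol enzymes are above their means in the 6Y and 42WKK arrays and below them in the 16Y arrays and 42Y array 1, while Scap, Ggps1, Npc1l1 and Mylip show little of this pattern. The mean signals of Npc1l1 (4.8) and Ggps1 (5.19) are close to the array medians of 4.74 to 4.88, where differences may not show.

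The regulators differed among themselves. Srebf2, which encodes SREBP2, had log2 signals of 7.91 and 8.22 in 6Y, 7.57 and 7.54 in 16Y and 7.48 and 7.70 in 42Y arrays, against 7.60 and 7.92 in control 1, 7.82 and 7.94 in 6K and 7.73 and 7.66 in 42WKK arrays. Its group means spanned 0.51 (1.43-fold), and it did not pass the F test (adjusted p = 0.206). Scap, the escort, spanned 0.26, with 9.37 and 9.31 in 6Y, 9.08 and 9.33 in 16Y and 9.22 and 9.19 in 42Y arrays, against 9.22 and 9.31 in control 1, 9.53 and 9.38 in 6K and 9.18 and 9.22 in 42WKK arrays. Scap had the narrowest span of the 27 genes, and that of Srebf2 was wider than the 0.43 of the sterol isomerase Ebp. Insig1, which retains Scap and is itself an SREBP target, had 10.96 and 11.31 in 6Y, 10.22 and 9.87 in 16Y and 10.40 and 10.70 in 42Y arrays, against 10.76 and 10.50 in control 1, 10.62 and 10.67 in 6K and 11.03 and 10.84 in 42WKK arrays. Both 16Y arrays were below the other 10 arrays.

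Most enzymes that lead to the isoprenoid units spanned wider ranges. Hmgcs1, the cytosolic synthase at the head of the mevalonate route, had 9.64 and 10.02 in 6Y, 8.14 and 7.85 in 16Y and 7.81 and 8.97 in 42Y arrays, against 8.38 and 8.70 in control 1, 9.05 and 9.11 in 6K and 10.01 and 9.66 in 42WKK arrays. Mevalonate kinase, Mvk, had 7.39 and 7.61 in 6Y, 6.12 and 6.43 in 16Y and 6.56 and 6.62 in 42Y arrays, against 6.92 and 7.00 in control 1, 7.33 and 7.25 in 6K and 7.24 and 6.91 in 42WKK arrays. For Mvk all 4 arrays of 16Y and 42Y were below the other 8. Mvd, which makes isopentenyl diphosphate, had 6.86 and 7.49 in 6Y, 5.85 and 5.89 in 16Y and 6.25 and 6.32 in 42Y arrays, against 6.95 and 6.56 in control 1, 6.76 and 6.90 in 6K and 7.11 and 6.67 in 42WKK arrays, with the same separation.

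Idi1, the isomerase that follows, spanned 7.65-fold between its highest and lowest group means. Its signals were 8.97 and 9.22 in 6Y, 6.64 and 5.85 in 16Y and 7.00 and 8.57 in 42Y arrays, against 7.61 and 7.79 in control 1, 8.62 and 8.49 in 6K and 9.36 and 9.0 in 42WKK arrays. The 42Y arrays stood far apart here, one below both control 1 arrays and the other level with 6K. Fdps, which joins these units into farnesyl diphosphate, had 8.77 and 9.16 in 6Y, 7.17 and 6.71 in 16Y and 7.30 and 8.35 in 42Y arrays, against 8.38 and 8.60 in control 1, 8.63 and 8.44 in 6K and 9.21 and 8.82 in 42WKK arrays. Pmvk, the kinase between Mvk and Mvd, ranged from 6.26 in 42Y array 1 to 7.94 in 42WKK array A. Ggps1, which turns farnesyl diphosphate towards protein prenylation, ranged only from 4.85 to 5.61, close to the median signal of all clusters. Aacs, which activates acetoacetate for lipid synthesis, ranged from 7.15 to 8.60, with both ends in control 1.

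The widest span of all belonged to the squalene step. Sqle, squalene epoxidase and a rate-limiting enzyme of the route, had 8.67 and 9.08 in 6Y, 6.05 and 5.50 in 16Y and 6.74 and 7.92 in 42Y arrays, against 6.77 and 7.79 in control 1, 7.88 and 8.04 in 6K and 9.07 and 8.57 in 42WKK arrays, a span of 8.6-fold between group means. Both 16Y arrays were lowest and the 6Y and 42WKK arrays were highest. Lss, lanosterol synthase, had 7.96 and 8.52 in 6Y, 6.43 and 6.35 in 16Y and 7.04 and 7.38 in 42Y arrays, against 7.18 and 7.39 in control 1, 7.81 and 7.79 in 6K and 8.25 and 7.98 in 42WKK arrays. Cyp51, which demethylates lanosterol, had 9.0 and 9.35 in 6Y, 7.50 and 6.99 in 16Y and 7.49 and 8.66 in 42Y arrays, against 8.10 and 8.57 in control 1, 8.71 and 8.64 in 6K and 9.47 and 9.26 in 42WKK arrays. For Cyp51 the 42Y arrays bracketed control 1, so those groups overlapped.

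Of the enzymes that trim lanosterol to cholesterol, Nsdhl, a sterol dehydrogenase, moved most among those that passed the F test. It had 9.52 and 9.84 in 6Y, 7.58 and 7.20 in 16Y and 7.34 and 8.62 in 42Y arrays, against 8.67 and 8.84 in control 1, 9.16 and 8.96 in 6K and 9.80 and 9.72 in 42WKK arrays. Hsd17b7, the keto reductase that acts after it, had 8.94 and 9.12 in 6Y, 7.81 and 8.14 in 16Y and 7.74 and 8.39 in 42Y arrays, against 8.45 and 8.27 in control 1, 8.97 and 8.75 in 6K and 9.32 and 9.01 in 42WKK arrays. In both genes every 6Y, 6K and 42WKK array was above every 16Y and 42Y array. Sc5d, a sterol desaturase, had 10.38 and 10.32 in 6Y, 9.41 and 9.12 in 16Y and 9.04 and 9.70 in 42Y arrays, against 10.16 and 9.94 in control 1, 10.30 and 10.04 in 6K and 10.25 and 10.21 in 42WKK arrays. Dhcr7, a reductase at the end of the route, had 9.51 and 9.77 in 6Y, 8.65 and 8.65 in 16Y and 8.54 and 9.19 in 42Y arrays, against 9.35 and 9.49 in control 1, 9.45 and 9.26 in 6K and 9.72 and 9.69 in 42WKK arrays. For Sc5d and Dhcr7, too, all 16Y and 42Y arrays were below the other 8.

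Tm7sf2 and Lbr encode sterol reductases that act on the same double bond, Lbr being also a receptor for lamin B in the nuclear membrane. Tm7sf2 had 9.25 and 9.43 in 6Y, 8.54 and 8.47 in 16Y and 8.76 and 8.94 in 42Y arrays, against 8.76 and 8.89 in control 1, 9.14 and 8.90 in 6K and 9.31 and 9.38 in 42WKK arrays. Lbr had 6.99 and 6.95 in 6Y, 6.46 and 6.31 in 16Y and 6.70 and 6.60 in 42Y arrays, against 6.33 and 6.58 in control 1, 6.71 and 6.85 in 6K and 7.05 and 6.99 in 42WKK arrays. For Lbr the control 1 arrays were as low as the 16Y arrays. Among the other 3 sterol enzymes, Fdft1, squalene synthase, ranged from 7.93 to 9.81, Msmo1, a methylsterol oxidase, from 7.77 to 10.93, and Ebp, a sterol isomerase, from 9.71 to 10.26, with the lowest value of each in a 16Y array.

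Of the remaining targets, Rdh11, a retinol dehydrogenase whose transcription is raised by SREBP in mouse liver, had the smallest adjusted p of the F test (0.013). It had 8.15 and 8.17 in 6Y, 6.01 and 6.22 in 16Y and 6.00 and 6.74 in 42Y arrays, against 6.96 and 7.02 in control 1, 7.71 and 7.48 in 6K and 7.98 and 7.77 in 42WKK arrays. The order of the groups was clear of overlap at its top and bottom, with 6Y above all others and all 16Y and 42Y arrays below all controls. Stard4, a cytosolic sterol carrier, had 8.30 and 8.50 in 6Y, 7.42 and 6.95 in 16Y and 8.02 and 8.19 in 42Y arrays, against 7.80 and 7.68 in control 1, 8.34 and 7.98 in 6K and 8.32 and 8.19 in 42WKK arrays. Npc1l1, a sterol uptake protein of the gut in mice, ranged from 4.57 to 5.14, around the median signal of all clusters. Mylip, a ubiquitin ligase induced by the sterol-activated receptor LXR, ranged from 6.48 to 7.06.

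**Figure D2:**
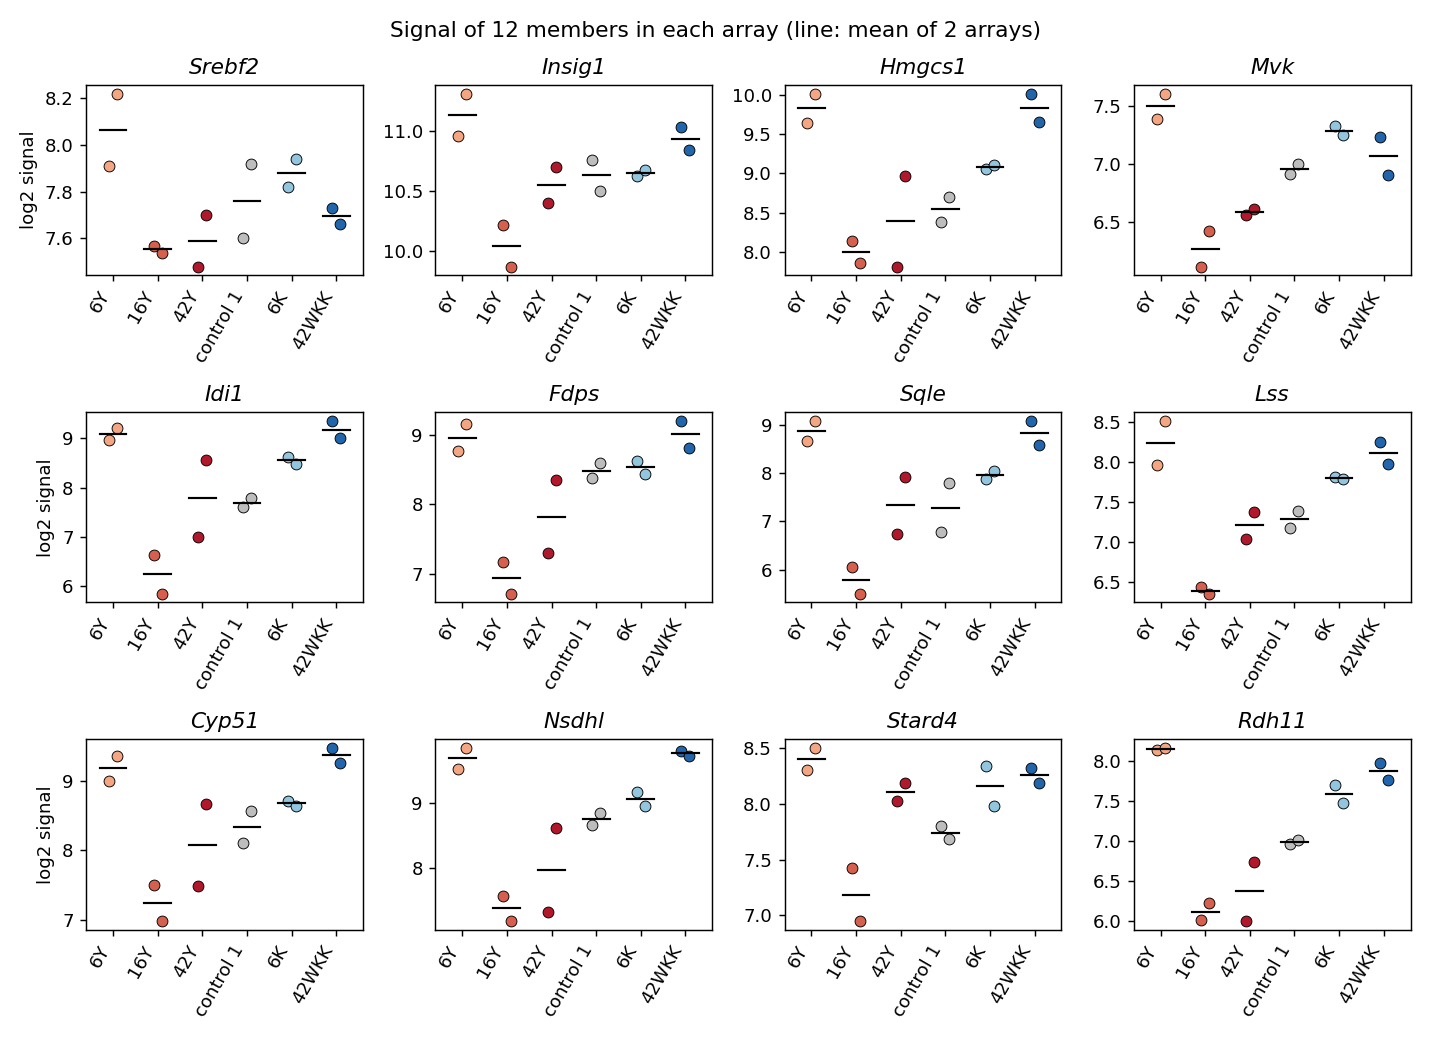
Log2 signal of 12 genes in each array (points) with the mean of the 2 arrays of a group (line). The groups 6Y, 16Y and 42Y stand left of control 1, 6K and 42WKK, and each panel has its own vertical axis. The 16Y points are lowest for Sqle (6.05 and 5.50), and the 42Y points lie far apart for Idi1 (7.00 and 8.57).

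The 2 arrays of 42Y differed more in these genes than those of any other group. Array 2 was above array 1 for 21 of 27 genes, by a median of 0.42 and by up to 1.75 for Msmo1, and the median absolute gap over all clusters in 42Y was 0.20. The median absolute gap of the 27 genes was 0.29 in 16Y, 0.20 in 6Y, 0.18 in control 1, 0.14 in 6K and 0.21 in 42WKK. Over all clusters the gap in these other groups was 0.13 (42WKK) to 0.17 (6Y), so that of 42Y was the widest there too.

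Of the 16Y against 6Y comparison, the question was how the cholesterol genes stood in T2D mice of different title number. No control group carried the number 16. The course of T2D, the title number itself and the handling of the arrays therefore cannot be told apart here. The 6Y arrays also serve in 6Y against 6K. In the limma fit 17 of the 27 genes passed an adjusted p under 0.05, all of them falling, against 1.78% of all clusters in either direction, 1.2% falling and 0.582% rising. The median log2 fold change of the 27 genes was -1.09, beside 0.04 over all clusters. The fall was 8.6-fold for Sqle (log2 fold change -3.10, standard error 0.44, adjusted p = 0.0272), 7.19-fold for Idi1 (-2.85, standard error 0.45, adjusted p = 0.0316), 4.91-fold for Nsdhl (-2.29, standard error 0.35, adjusted p = 0.0307), 4.13-fold for Rdh11 (-2.05, standard error 0.22, adjusted p = 0.0136) and 4.08-fold for Fdps (-2.03, standard error 0.33, adjusted p = 0.0316). By role, those that passed were 5 of 8 mevalonate and isoprenoid genes (Hmgcs1, Mvk, Mvd, Idi1 and Fdps) and 9 of 12 squalene and sterol genes (Fdft1, Sqle, Lss, Cyp51, Tm7sf2, Lbr, Nsdhl, Sc5d and Dhcr7). Insig1 passed among the 3 regulators, and Stard4 and Rdh11 among 4 other targets. Whether passing or not, means were lower in 16Y for 7 of the 8, all 12, all 3 and 3 of the 4 genes of these roles. The second cluster of Idi1 gave -2.91 (adjusted p = 0.0368) and that of Fdft1 gave -1.59 (adjusted p = 0.033).

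The 10 genes that did not pass included several with large differences. Msmo1 had a log2 fold change of -2.25 (95% interval -3.41 to -1.09, adjusted p = 0.0662, limma), Hsd17b7 of -1.05 (adjusted p = 0.0569), Pmvk of -0.89 (adjusted p = 0.0936), Srebf2 of -0.51 (adjusted p = 0.123) and Ebp of -0.43 (adjusted p = 0.0774). Scap, at -0.13 (interval -0.39 to 0.12), and Npc1l1, at -0.06 (interval -0.36 to 0.25), were near 0. For Npc1l1 the signal itself was only at the median of all clusters. The 16Y arrays were both below both 6Y arrays for 23 genes (21.6% of all clusters) and both above them for Ggps1 (27.8% of all clusters).

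The number of calls rested on all arrays in the fit. It was 0 without 6Y array 2, without 16Y array 1 or without 16Y array 2, and 1 without 6Y array 1. It was also 3 without 42WKK array A or B, 6 without 6K array 1 or 2 and 7 without either control 1 array, although those arrays enter only the shared estimate of the spread, and 18 without either 42Y array. The median fold change of the 27 genes was between -1.27 and -0.99 whichever array was left out.

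In 42Y against 42WKK, the pair of groups stated to be 42 weeks old, 26 of 27 means were lower in 42Y and the median log2 fold change was -0.84, beside 0.02 over all clusters. Only 4 genes passed an adjusted p under 0.05 (limma), all falling, against 1.85% of all clusters in either direction, 0.92% falling and 0.934% rising. Rdh11 fell 2.84-fold (log2 fold change -1.50, standard error 0.22, adjusted p = 0.0197), Nsdhl 3.44-fold (-1.78, standard error 0.35, adjusted p = 0.0455), Pmvk 2.3-fold (-1.20, standard error 0.23, adjusted p = 0.0436) and Hsd17b7 2.15-fold (-1.10, standard error 0.22, adjusted p = 0.0493). Pmvk had 6.26 and 6.94 in 42Y arrays, against 7.94 and 7.67 in 42WKK arrays, and these did not overlap. Both 42Y arrays were below both 42WKK arrays for 22 genes (22.7% of all clusters). Msmo1 (-1.65, adjusted p = 0.149), Sqle (-1.49, adjusted p = 0.135), Hmgcs1 (-1.44, adjusted p = 0.0752) and Idi1 (-1.40, adjusted p = 0.163) did not pass, while Scap was at 0.01 (interval -0.25 to 0.26) and Srebf2 at -0.10 (interval -0.44 to 0.23).

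The 42Y arrays weighed unequally in this. Without 42Y array 2, the one with the higher signals, the median log2 fold change of the cholesterol genes was -1.08, and without 42Y array 1 it was -0.53. No gene passed without 42WKK array A or B, 1 passed without any 1 array of control 1, 6K or 16Y, and 2 without either 6Y array. The median fold change stayed between -1.08 and -0.53 whichever array was left out.

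**Figure D3:**
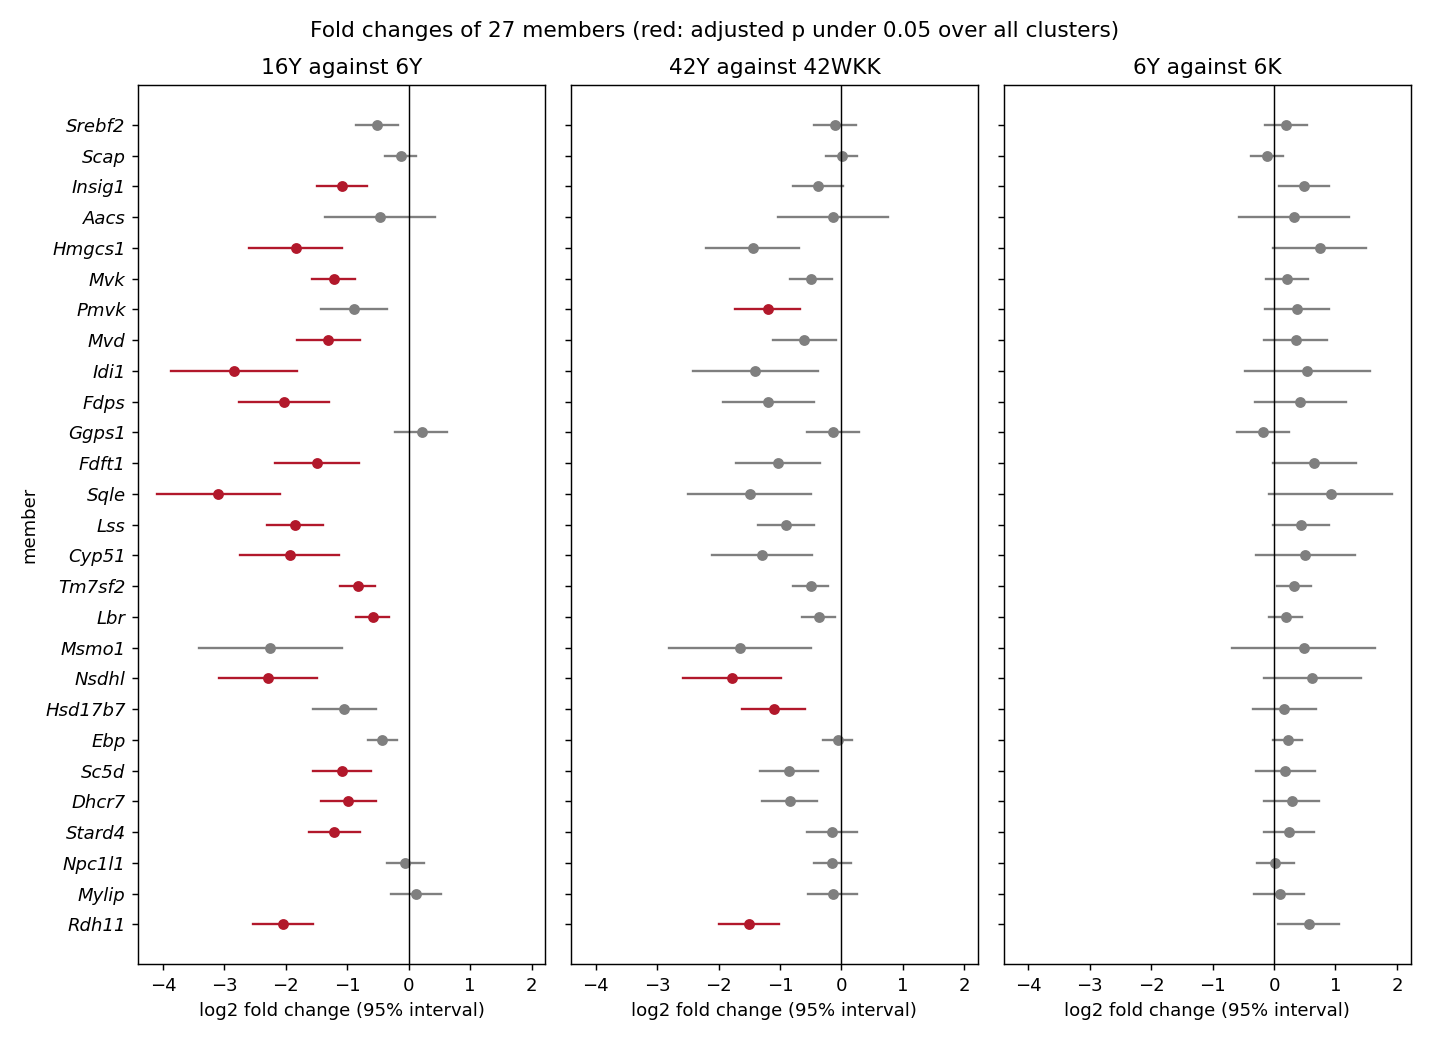
Log2 fold changes of the 27 genes (points, with 95% intervals from limma) in 16Y against 6Y, 42Y against 42WKK and 6Y against 6K, in the order of the pathway; red marks an adjusted p under 0.05 over all clusters. Of 27 points, 25 are below 0 in the left panel, 26 in the middle one and 2 in the right one.

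In 6Y against 6K, no cholesterol gene passed, in a comparison where 0.00281% of all clusters (a single one, agouti) did. At an unadjusted p under 0.05 there were 3 genes (limma), with no share over all clusters computed at that cutoff. The log2 fold changes were 0.49 for Insig1 (± 0.18, standard error; adjusted p = 0.91), 0.57 for Rdh11 (± 0.22, adjusted p = 0.921) and 0.32 for Tm7sf2 (± 0.13, adjusted p = 0.921). The median was 0.32, beside 0.00 over all clusters, with 25 of 27 means higher in 6Y, and both 6Y arrays were above both 6K arrays for 19 genes (17.6% of all clusters) and below them for Scap (17.8%). Sqle had the largest mean difference, 0.92 (interval -0.08 to 1.92). The median was 0.21 without 6Y array 2.

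The 42Y and 6Y differences from their KK counterparts were therefore of opposite sign for many genes, and the difference between them was tested directly. The 42Y minus 42WKK difference less the 6Y minus 6K difference had a median of -1.04 over the 27 genes, beside 0.01 over all clusters, and 25 of 27 were negative. No gene passed (limma), against 0.143% of all clusters. At an unadjusted p under 0.05 there were 19 genes, a cutoff for which no share over all clusters was computed. Rdh11 came nearest (-2.07, standard error 0.31, adjusted p = 0.0544), followed by Nsdhl (-2.40, standard error 0.49, adjusted p = 0.111), Lss (-1.34, standard error 0.28, adjusted p = 0.111) and Pmvk (-1.58, standard error 0.33, adjusted p = 0.111). For 18 genes both 42Y arrays were below both 42WKK arrays while both 6Y arrays were above both 6K arrays, an arrangement found in 4.94% of all clusters. With 1 array left out, the median ran from -1.37 to -0.81.

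Over all T2D arrays against all controls, no cholesterol gene passed (limma; 0.208% of all clusters did), 15 had an unadjusted p under 0.05 and the median was -0.38, beside 0.00 over all clusters. No gene had its 6 T2D arrays clear of its 6 control arrays (0.166% of all clusters were higher and 0.157% lower without overlap). With 1 array left out, the median ran from -0.48 to -0.30.

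In 42Y against 16Y, which shares its 16Y arrays with the comparison against 6Y, no gene passed (limma; 0.399% of all clusters did), 9 had an unadjusted p under 0.05 and 22 of 27 means were higher in 42Y. The median was 0.34, beside -0.03 over all clusters, and both 42Y arrays were above both 16Y arrays for 12 genes (18.4% of all clusters), among them Sqle, Idi1, Lss and Stard4, and below them for Ggps1, Npc1l1 and Mylip (23.7%). Without 42Y array 2 the median was 0.01, with 14 means higher and 13 lower in 42Y, and 9 genes with a positive difference over both arrays then had one of -0.24 to -0.03 (Srebf2, Hmgcs1, Fdft1, Msmo1, Nsdhl, Hsd17b7, Sc5d, Dhcr7 and Rdh11). Among the controls, 42WKK against 6K gave no gene past the threshold (limma; 1.01% of all clusters), 3 at an unadjusted p under 0.05 and a median of 0.31, beside -0.02 over all clusters, which was 0.18 without 42WKK array A. Against control 1, 3 genes passed, all rising in 42WKK, where 5.71% of all clusters passed in either direction, 3.67% rising and 2.04% falling. These were Lss (log2 fold change 0.83, adjusted p = 0.047), Lbr (0.57, adjusted p = 0.0312) and Tm7sf2 (0.52, adjusted p = 0.0489, limma), and the median was 0.52, beside -0.07 over all clusters. The count was 0 without either control 1 array or either 42WKK array, 1 without any 1 array of 6K or 16Y, 2 without either 6Y array and 11 without either 42Y array. These comparisons share the 42WKK arrays with each other and with that of 42Y.

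The genes around the route behaved differently from it in places. Of 11 genes for SREBP processing and its partner factors, none passed in 16Y against 6Y, 42Y against 42WKK or 6Y against 6K, with 2, 4 and 0 of them at an unadjusted p under 0.05 (limma) and medians of -0.15, 0.01 and 0.05. Insig2, a relative of Insig1, fell in 42Y against 16Y (-1.61, adjusted p = 0.0248), with 9.65 and 9.65 in 42Y arrays against 11.11 and 11.41 in 16Y arrays, while Erlin1, a membrane protein that binds Insig-Scap complexes, rose (0.83, adjusted p = 0.0332), with 7.83 and 7.83 against 7.11 and 6.90. Of 9 genes of the isoprenoid branch, which use farnesyl diphosphate for other ends, none passed in 16Y against 6Y (3 at an unadjusted p under 0.05) and the median was -0.11. Of 15 genes for efflux, storage and conversion of cholesterol, none passed there either (7 at an unadjusted p under 0.05) and the median was 0.00. These 15 were split, with 7 means higher and 8 lower in 16Y and log2 fold changes from -1.62 to 0.68. In the F test over the 6 groups 3 of them passed (Abcg5, Cyp39a1 and Lipa), against 5.43% of all clusters. In 42Y against 42WKK, Abca1, which loads cholesterol onto lipoproteins, rose among these 15 (0.80, adjusted p = 0.0436), with 9.94 and 9.54 in 42Y arrays against 8.96 and 8.93 in 42WKK arrays, and Lipa, the lysosomal acid lipase, fell (-0.88, adjusted p = 0.0112), with 10.37 and 10.39 against 11.26 and 11.27.

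Lipogenic genes, which the related factor SREBP1 drives, had all 12 means lower in 16Y than in 6Y, with a median of -0.58. Acly, which supplies cytosolic acetyl-CoA, fell (-1.29, adjusted p = 0.0272, limma), with 8.37 and 8.10 in 16Y arrays against 9.55 and 9.50 in 6Y arrays. Fads2, a fatty acid desaturase, fell as well (-0.64, adjusted p = 0.0383). In 42Y against 42WKK all 12 means were lower too, with a median of -0.56, and Acss2, an acetyl-CoA synthetase, fell (-0.89, adjusted p = 0.0436), with 8.37 and 8.47 in 42Y arrays against 9.46 and 9.16 in 42WKK arrays. A list of 6 genes that respond to feeding, of which Fasn and Elovl6 are also among the lipogenic genes, had all 6 means lower in 16Y than in 6Y, with a median of -0.83 and 4 at an unadjusted p under 0.05. Its median deviation was -0.77 and -0.65 in 16Y arrays against 0.23 and 0.15 in 6Y arrays. In 42Y against 42WKK its median was -0.93, with 4 at an unadjusted p under 0.05 (limma). There 4 means were lower and 2 higher in 42Y, those of Thrsp and Srebf1, with a largest log2 fold change of 0.33. Acacb, a carboxylase of fatty acid metabolism, passed in both comparisons (-0.85, adjusted p = 0.0343, and -0.97, adjusted p = 0.0213). Of 8 fasting genes, 1 passed in 42Y against 42WKK, Pdk4 (-2.12, adjusted p = 0.0302, limma), a kinase that restrains pyruvate oxidation. The list was split there, with 5 means lower and 3 higher in 42Y and 4 genes at an unadjusted p under 0.05. Igfbp1 was among the higher ones, with 12.38 and 11.22 in 42Y arrays against 10.30 and 10.55 in 42WKK arrays. No fasting gene passed in 16Y against 6Y, where 7 means were higher and 1 lower in 16Y.

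**Figure D4:**
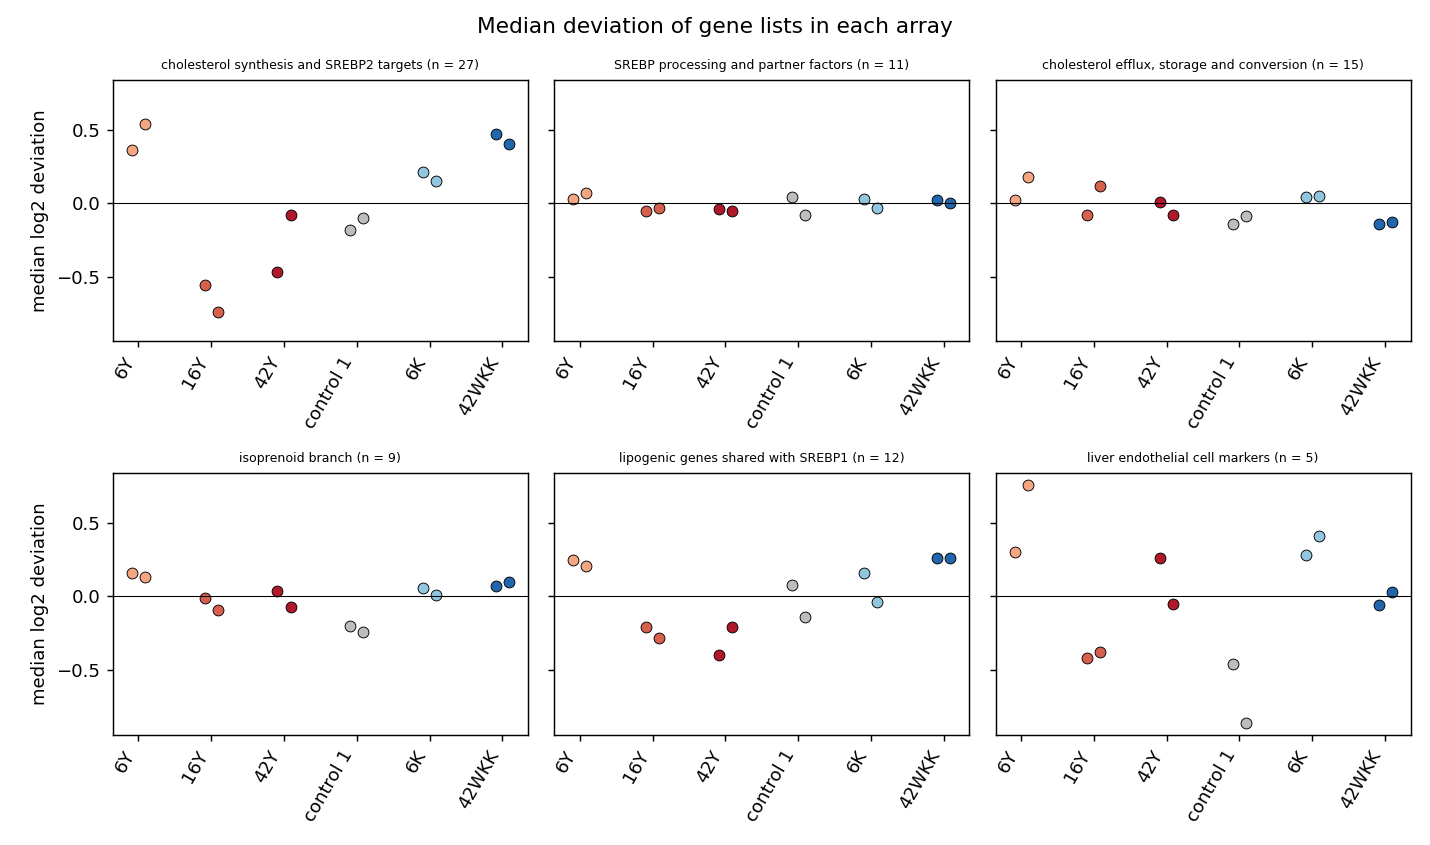
Median log2 deviation of 6 gene lists in each array (points), each gene set against its own mean over 12 arrays, with 6Y, 16Y and 42Y left of control 1, 6K and 42WKK. The cholesterol genes reach -0.74 in a 16Y array, and the endothelial markers are low in the 16Y and control 1 arrays.

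Other measures also differed between some of these groups, not always in the same ones. In 16Y against 6Y, 3 of 5 liver endothelial markers fell (Clec4g, -1.20, adjusted p = 0.0408; Kdr, -0.98, adjusted p = 0.0341; Lyve1, -1.36, adjusted p = 0.0492; limma), with list medians per array of 7.09 and 7.24 in 16Y against 7.92 and 8.32 in 6Y, and 1 of 5 stellate cell markers, Col3a1, fell (-1.17, adjusted p = 0.0316). None of 6 Kupffer cell markers (median -0.37) and none of 10 hepatocyte markers (median 0.00) passed. In 42Y against 42WKK no endothelial marker (median -0.05) and no stellate cell marker (median -0.24) passed. The median deviation of the endothelial list was -0.46 and -0.86 in control 1 arrays, beside -0.42 and -0.38 in 16Y arrays. Of 14 clock genes, Tef (1.13), Nr1d1 (2.66) and Nr1d2 (1.48), which follow the time of day in liver, rose in 16Y against 6Y, with adjusted p of 0.0376, 0.0349 and 0.015 (limma). In 42Y against 42WKK 8 of 14 passed, 5 of them rising (Dbp, Tef, Nr1d1, Nr1d2 and Bhlhe41) and 3 falling (Arntl, Clock and Cry1). Nr1d1 had 10.47 and 10.21 in 42Y arrays against 6.96 and 8.41 in 42WKK arrays, and Arntl had 5.62 and 5.67 against 7.74 and 7.64. In bulk tissue, fewer cells of a type and less RNA per cell cannot be told apart. The part of cell makeup, time of day and feeding state in the cholesterol result was not tested.

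Because the synthesis genes moved together, the promoters of 4 genes are shown, taken from RefSeq (GRCm38.p6) as the 250 bases before the annotated start of each gene, all on the + strand. Hmgcs1 and Insig1 were chosen because they hold a match to a sterol regulatory element, and Idi1 and Nsdhl because they had the largest falls in 16Y against 6Y among the genes with a sequence that passed the test. Capitals mark matches to the element (TCACNCCAC, or its core CACNCCAC, which lies inside it) and to CCAAT, the site of the SREBP partner NF-Y, read as ATTGG where it is on the opposite strand.
Hmgcs1 (chr13:119690101-119690350): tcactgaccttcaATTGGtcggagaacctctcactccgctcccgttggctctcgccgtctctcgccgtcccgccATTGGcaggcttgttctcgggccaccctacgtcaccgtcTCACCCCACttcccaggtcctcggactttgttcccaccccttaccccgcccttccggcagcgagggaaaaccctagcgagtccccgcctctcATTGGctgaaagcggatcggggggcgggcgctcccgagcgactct
Insig1 (chr5:28071162-28071411): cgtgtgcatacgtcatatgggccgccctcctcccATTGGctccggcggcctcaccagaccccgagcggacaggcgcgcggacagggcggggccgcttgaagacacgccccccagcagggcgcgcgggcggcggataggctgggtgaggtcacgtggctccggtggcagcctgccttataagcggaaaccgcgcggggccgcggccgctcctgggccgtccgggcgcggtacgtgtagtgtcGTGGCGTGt
Idi1 (chr13:8885356-8885605): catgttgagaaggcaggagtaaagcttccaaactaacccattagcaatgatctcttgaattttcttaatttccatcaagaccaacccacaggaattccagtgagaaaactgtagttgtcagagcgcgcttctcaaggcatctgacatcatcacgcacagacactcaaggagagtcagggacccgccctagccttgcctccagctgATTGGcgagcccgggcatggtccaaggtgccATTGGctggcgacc
Nsdhl (chrX:72918271-72918520): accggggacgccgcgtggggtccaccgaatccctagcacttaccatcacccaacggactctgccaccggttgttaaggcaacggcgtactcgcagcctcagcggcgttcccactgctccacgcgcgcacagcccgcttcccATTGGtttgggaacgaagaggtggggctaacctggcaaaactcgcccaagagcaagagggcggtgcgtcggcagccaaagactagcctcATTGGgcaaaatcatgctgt
The Hmgcs1 promoter held the full element at position -137 from the start, between CCAAT matches at -176 and -45, and a further CCAAT match at -237. Insig1 held a core match on the opposite strand at -9 and CCAAT at -216. Idi1 had CCAAT at -45 and -14 and Nsdhl at -109 and -20, and neither had a match to the core. All 27 measured genes were looked up, and 23 had an entry, with 28 windows that also took in 50 bases after the start, 300 bases in all. Read on both strands, CCAAT was found in 75.0% of these windows and in 37.4% of 32851 mouse promoter windows of the same length. GGGCGG, a GC box, was found in 71.4% and 35.7%, and CACGTG, an E-box, in 25.0% and 7.15%. The full element was in 3.57%, which is 1 of the 28 windows (Hmgcs1), and in 1.24% of all windows. Its core was in 7.14%, which is 2 of the 28 (Hmgcs1 and Insig1), and in 6.24% of all windows. A match is a description of letters and not of binding.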

How the data were processed

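The 12 arrays fell into 6 groups of 2, taken from the sample titles. The authors deposited log2 values for 35556 transcript clusters, made by robust multichip analysis (sketch), per the methods, in Affymetrix Expression Console, per the submitters' processing notes. A mouse exon array is named in the methods, but cluster identifiers are of the mouse gene array. The build used for the clusters was not stated in the sources used here. Of the clusters, 21797 had 1 gene symbol, 1613 several and 12146 none, and symbols were updated by gene identifier where it matched (21698 clusters).

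Means of the 6 groups were fitted on the log2 values in R 4.3.3 with limma 3.58.1 (lmFit and eBayes, no trend), with the spread shared over all arrays, 8 contrasts and an F test, and Benjamini-Hochberg adjustment over all clusters. A gene passed at an adjusted p under 0.05. Counts at an unadjusted p under 0.05 have no background, because the share of all clusters at that cutoff was not computed. The fit was tested on simulated data. Genes given array by array were up to 16 by smallest F test p, plus Srebf2, Scap and Insig1. The members and lists were chosen with earlier results of these data known. Robust multichip analysis compresses differences at low signal, arrays give no read depth, and precision is limited by their number. Alternatives changed the normalization, filter, variance model and arrays. Some genes are not reported here.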

Additional observations from a re-analysis of the deposited data

Results flagged for a closer look

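Among 54 gap tests, made on the 6 T2D and the 6 control arrays of the 27 cholesterol genes, 1 array stood apart. Npc1l1, the sterol uptake protein, had a log2 signal of 5.14 in control 1 array 5, against 4.75 in control 1 array 3, 4.85 and 4.77 in 6K arrays and 4.76 and 4.82 in 42WKK arrays. Chance puts about 1 group in 20 past this limit, and the gene passed no comparison.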

How the results depend on the processing

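Counts of calls moved with the settings and with the arrays left out. The share of all clusters called in each of those fits is not given beside them. These counts therefore do not show whether the 27 genes moved more than the rest. In 16Y against 6Y, the 17 calls became 18 with centred arrays, 14 with quantile normalization, 22 with a mean log2 signal of at least 6, 20 with a variance trend and 21 over clusters with 1 gene symbol, and 0 with only the arrays compared or 6 without the 6K arrays, where fewer arrays entered the fit. In 42Y against 42WKK, the 4 calls became 3 with centred arrays, 1 with quantile normalization, 16 with the filter, 8 with the trend, 11 over 1-symbol clusters, 0 with only the arrays compared and 1 without 6K, and a one-way analysis of variance of these 4 arrays, the kind of test the study lists for this pair, gave 2 unadjusted and 0 after Benjamini-Hochberg adjustment. In 42WKK against control 1, the 3 calls became 8, 1, 12, 7, 8, 0 and 1 under those 7 settings in the same order, and 11 without the 42Y arrays, a setting chosen after seeing the data. The filter gave 2 calls in 42Y against 16Y, 6 in T2D against control and 10 in the difference of differences, the trend 1, 0 and 1, and 1-symbol clusters 2, 2 and 5. With 1 array left out, calls ranged from 0 to 18 in 16Y against 6Y, 0 to 12 in 42Y against 42WKK, 0 to 11 in 42WKK against control 1, 0 to 3 in T2D against control, 0 to 5 in the difference of differences and 1 to 17 in the F test, and stayed at 0 in 6Y against 6K, 42Y against 16Y and 42WKK against 6K. With 1 array of the pair left out, no gene changed sign in 16Y against 6Y, while Srebf2, Scap, Aacs and Ggps1, all small differences, did so in 42Y against 42WKK. Srebf2 (-0.10) ranged from -0.21 to 0.00 with 1 array left out, reaching 0.00 without 42Y array 1, and Scap (0.01) was -0.02 with centred arrays and ranged from -0.01, without 42WKK array A or 42Y array 1, to 0.03 without 42WKK array B. In 42Y against 16Y, 10 of 27 genes changed sign without 42Y array 2. Apart from the settings with fewer arrays, the cause of these shifts was not tested.

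The replicate numbers of 6K, 6Y, 16Y and 42Y did not pair the arrays (correlations of deviations -0.04 to 0.05). With the number as a replicate block over these 8 arrays, 16Y against 6Y had 0 calls, as it had in the same 8 arrays with no block, a fit added after seeing the data, with 23 genes at an unadjusted p under 0.05 in both.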
